A study of Homo sapiens with 6 samples.

Results

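The interleukin-1 family examined here comprised 10 genes, selected by symbol from the 58735 genes of the count table: the ligands IL1A, IL1B, IL18 and IL33, the antagonist IL1RN, the binding protein IL18BP, the decoy receptor IL1R2, the receptors IL1R1 and IL1RL1, and the co-receptor IL1RAP. All 10 were found, each as a single gene. They were measured in polyadenylated RNA of HepaRG cells, an established human liver progenitor line that differentiates into cells resembling hepatocytes and bile duct cells when held in DMSO (here 1.8%). Per the labels' protocols, the differentiated cells were transfected with siRNA for 48 h, and every library then came from cells exposed for 24 h to a fatty acid load of 800 µM oleic with 400 µM palmitic acid. The groups were labelled PTPF (3 libraries) and STATF (3 libraries). The protocol names siRNAs against PTPRD and STAT3 and a control siRNA, but the labels do not spell out which label received which.

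Members of this family carry early signals of inflammation. Interleukin-1 alpha and beta bind the receptor IL1R1, interleukin-33 binds IL1RL1 (also called ST2), and both receptors need the shared partner IL1RAP to recruit MYD88 and IRAK kinases and activate NF-kB. Interleukin-18 uses a receptor pair of its own, IL18R1 and IL18RAP. The family is held in check by proteins that take up ligand or receptor without signalling: IL1RN occupies IL1R1, IL1R2 captures interleukin-1, and IL18BP captures interleukin-18. In liver, interleukin-1 is a classical inducer of acute-phase proteins in hepatocytes.

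Gene counts totalled 33225627 to 40796767 per library. STAT3 stood at 443 ± 12.2 CPM (counts scaled to library size with TMM factors) in the PTPF libraries and 119.6 ± 10.6 CPM in the STATF libraries (SD, n = 3 each) (log2 fold change 1.89, edgeR adjusted p = 2.47e-18). PTPRD did not separate the labels, at 11.5 ± 1.37 CPM in PTPF and 11.5 ± 0.603 CPM in STATF libraries (SD, n = 3 each), with a log2 fold change of 0.00 and a 95% interval from -0.19 to 0.19. Directions below are therefore between libraries by label. Since nothing in the labels ties the replicates to separate cultures, the spread behind each p-value may be technical. All 6 hepatocyte markers were expressed, with summed levels of 38818 to 45827 CPM in PTPF and 36452 to 37450 CPM in STATF libraries. SERPINA1 carried the higher PTPF sum (log2 fold change 0.71), while ALB (-0.31), APOA1 (-0.25) and TF (-0.38) were lower, and the other 2 hepatocyte markers did not pass (edgeR adjusted p under 0.05). Over all genes tested, 10.1% passed as higher and 11.6% as lower. The leukocyte marker PTPRC had 1 count in PTPF and 0 in STATF libraries, and CD3E had none in any library. The 9 leukocyte and macrophage markers summed to 4.53 to 5.95 CPM in PTPF and 5.64 to 6.003 CPM in STATF libraries. Of these 9, 3 were tested and 0 passed (edgeR adjusted p under 0.05), where 21.6% of all genes tested passed in either direction. So few tested markers cannot show that leukocyte RNA was equal. ITGAM stood at 3.59 ± 0.272 CPM in PTPF and 3.36 ± 0.215 CPM in STATF libraries (SD, n = 3 each). CD163 averaged 1.10 CPM in PTPF and 1.44 CPM in STATF libraries, and MARCO 0.383 and 0.584 CPM.

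Promoter sequence is shown for the genes on which the results turn: IL18BP, which fell, and IL1RL1 and IL1B, which were among those that rose. RefSeq windows (GRCh38.p14) from 250 bases before to 50 bases after an annotated start were available for 9 of the 10 members, 21 windows in all, and IL18 had none. Both strands were searched for TTCNNNGAA, the spaced palindrome read by STAT proteins, for the interferon-stimulated response element in the form GAAA, NN, GAAA, and for the NF-kB site in the form GGG, NN, TTTCC. Each window is printed 5′ to 3′ on the strand of its gene, with matches in capitals, and in the windows printed here no match overlapped another.
IL18BP, chr11:71999367-71999666, plus strand: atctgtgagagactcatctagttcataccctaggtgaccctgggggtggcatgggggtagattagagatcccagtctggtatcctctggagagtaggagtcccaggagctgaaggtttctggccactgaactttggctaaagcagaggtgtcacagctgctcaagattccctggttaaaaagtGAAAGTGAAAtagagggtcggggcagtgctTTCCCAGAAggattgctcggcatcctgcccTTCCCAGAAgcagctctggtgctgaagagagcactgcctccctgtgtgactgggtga
IL1B, chr2:112836730-112837029, minus strand: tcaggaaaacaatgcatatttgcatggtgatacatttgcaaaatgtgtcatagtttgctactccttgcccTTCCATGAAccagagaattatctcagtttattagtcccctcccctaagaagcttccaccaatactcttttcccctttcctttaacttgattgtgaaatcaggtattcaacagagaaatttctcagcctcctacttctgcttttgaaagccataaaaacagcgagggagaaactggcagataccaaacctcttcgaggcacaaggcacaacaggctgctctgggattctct
IL1RL1, inner start, chr2:102337007-102337306, plus strand: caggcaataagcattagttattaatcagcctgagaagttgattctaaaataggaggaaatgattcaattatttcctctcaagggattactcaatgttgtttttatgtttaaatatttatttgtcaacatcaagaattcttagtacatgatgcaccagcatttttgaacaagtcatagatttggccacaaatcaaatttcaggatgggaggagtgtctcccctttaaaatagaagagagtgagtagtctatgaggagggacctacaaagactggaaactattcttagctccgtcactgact
IL1RL1, outer start, chr2:102311313-102311612, plus strand: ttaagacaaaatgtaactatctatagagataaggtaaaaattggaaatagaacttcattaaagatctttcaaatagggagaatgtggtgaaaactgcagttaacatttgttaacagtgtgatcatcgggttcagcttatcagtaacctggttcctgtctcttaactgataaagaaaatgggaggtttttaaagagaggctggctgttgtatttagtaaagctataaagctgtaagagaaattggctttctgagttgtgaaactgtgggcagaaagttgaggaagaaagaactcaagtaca

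This IL18BP window, at 1 of the gene's 4 annotated starts, held GAAAGTGAAA beginning at position -67 (the annotated start being 0) and TTCCCAGAA beginning at positions -37 and -7. The other 3 IL18BP windows held none of the motifs. The IL1B window held TTCCATGAA beginning at position -180, and neither window of IL1RL1 held any of them. Among windows not printed, one of IL1R1 held TTCACAGAA beginning at position -47, and one of IL33 held TTCAGGGAA beginning at position 15. TTCNNNGAA was thus present in 4 of the 21 member windows and in 7.66% of the 35116 RefSeq promoter windows of the same length. The interferon response element was present in 3 member windows and in 3.57% of all, and the NF-kB form in 2 and in 1.91%. A pair of overlapping IL1RN windows, which hold the same sites, accounts for both NF-kB matches among the members and for 2 of the 3 matches to the interferon element. A match describes the letters in a window and was not tested as a binding site.

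Of the 10 members, 7 were expressed highly enough to be tested, with at least 69 counts in every library. In the fit across all 17844 genes, 5 of these 7 rose in the PTPF libraries and 2 fell (edgeR adjusted p under 0.05), where 21.6% of all genes tested passed in either direction, 10.1% higher and 11.6% lower. The genes that rose were IL1RL1, IL1B, IL1RAP, IL1R2 and IL1R1. Those that fell were IL18 and its binding protein IL18BP. For each of the 7 the libraries of the groups did not overlap in CPM, as for 35.7% of all genes tested. The two-sided exact permutation p over libraries was 0.1 for each, the smallest that 3 against 3 libraries allow. IL1A, IL33 and IL1RN had too few counts to be tested.

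**Figure D1:**
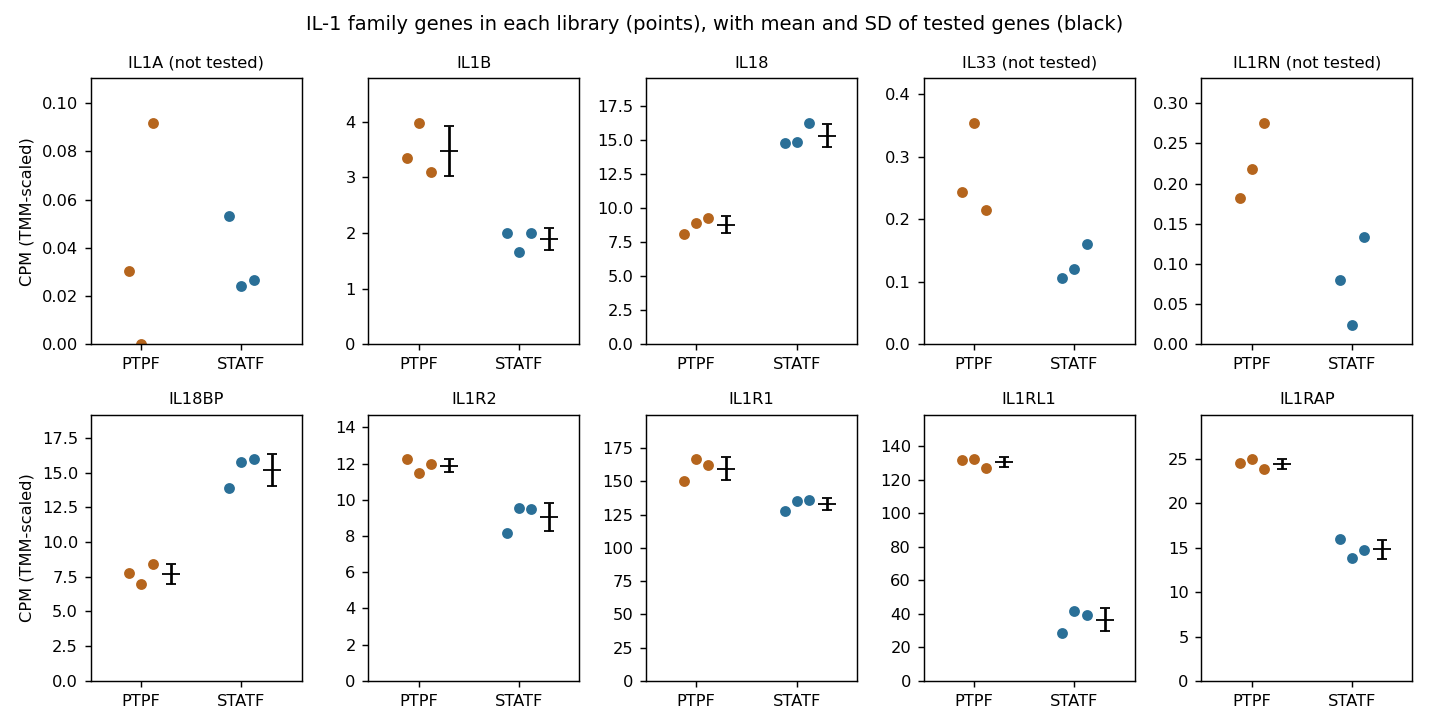
TMM-scaled CPM of each family member (vertical axes from 0) in the 3 PTPF libraries (left, brown) and the 3 STATF libraries (right, blue), with the mean and SD in black for the 7 genes tested. IL1RL1 lay between 127 and 132 CPM in PTPF and between 28.7 and 41.8 CPM in STATF libraries, while IL18 and IL18BP were lower in every PTPF library.

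**Figure D2:**
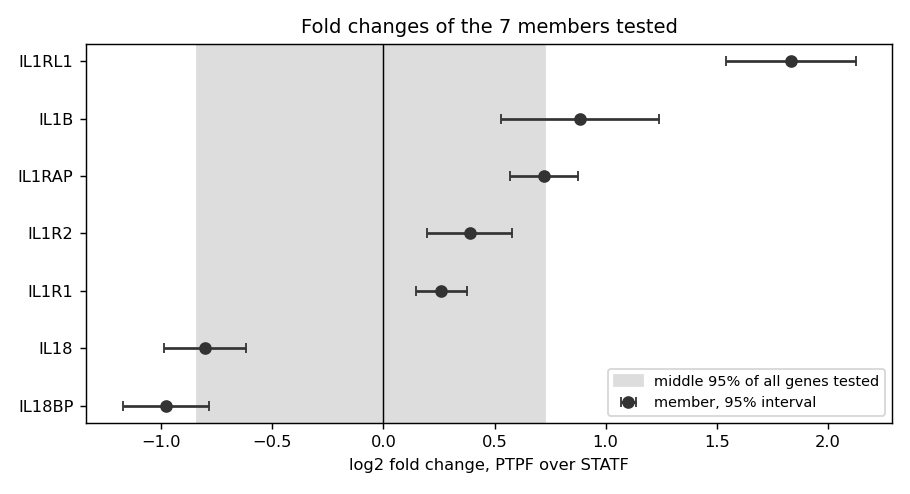
Log2 fold change, PTPF over STATF, of the 7 members tested, with 95% intervals, over the middle 95% of all 17844 genes tested (grey, from -0.84 to 0.73). IL1RL1 (1.83) and IL1B (0.88) lay above the grey band and IL18BP (-0.98) below it.

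Among the receptors, IL1RL1 differed most. This gene on chromosome 2 (102311502 to 102352037, plus strand, GRCh38) encodes both the membrane receptor of interleukin-33 and a soluble form that traps it, which gene counts do not separate. It stood at 132, 132 and 127 CPM in the PTPF libraries, against 28.7, 41.8 and 39.0 CPM in the STATF libraries. The PTPF libraries were nearly equal, and STATF replicate 1 was the lowest. IL1RL1 was 3.56-fold higher in PTPF libraries (log2 fold change 1.83, SE 0.12, 95% interval 1.54 to 2.13, edgeR adjusted p = 2.27e-05), and ranked 20th from the top among the 17844 genes tested. A stretch of 95 exon bases, 1.65% of the gene, is shared with the neighbouring IL18R1 on the same strand.

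IL1RAP, the co-receptor of both IL1R1 and IL1RL1 (chromosome 3, 190514051 to 190659750, plus strand), followed in the same direction. Its level was 24.6, 24.96 and 23.8 CPM in PTPF libraries and 15.9, 13.8 and 14.8 CPM in STATF libraries. Every PTPF library lay above every STATF library, and IL1RAP was 1.65-fold higher (log2 fold change 0.72, SE 0.07, edgeR adjusted p = 2.87e-08). Of its exon bases 4.63% are shared with AC108747.1 on the same strand, which had no counts in any library.

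IL1R1, the signalling receptor of interleukin-1 (chromosome 2, 102064544 to 102179874, plus strand), rose by the smallest amount. It stood at 150.2, 167 and 162 CPM in PTPF libraries, against 128, 136 and 136 CPM in STATF libraries. The groups were separate but close, and the log2 fold change was 0.26 (SE 0.06, 95% interval 0.15 to 0.38, edgeR adjusted p = 0.00101). The decoy receptor IL1R2, which lies next to it (101991844 to 102028544, plus strand), stood at 12.2, 11.5 and 11.98 CPM in PTPF libraries and 8.18, 9.56 and 9.49 CPM in STATF libraries. IL1R2 was 1.31-fold higher (log2 fold change 0.39, SE 0.09, edgeR adjusted p = 0.00278).

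IL1R2, IL1R1, IL1RL2, IL1RL1, IL18R1 and IL18RAP lie in this order within 460722 bases of chromosome 2, all on the plus strand. IL18R1, the ligand-binding chain of the interleukin-18 receptor, overlaps IL1RL1. Its first annotated base, 102311529, lies inside the window printed above for the outer IL1RL1 start. Its RefSeq windows lie beyond the end of IL1RL1, at chr2:102355546-102355845 and chr2:102356033-102356332. Only the latter held a motif, TTTCACTTTC (the interferon element on the other strand), beginning at position -18. IL18R1 stood at 26.8, 26.6 and 24.8 CPM in PTPF libraries, against 16.1, 17.9 and 18.4 CPM in STATF libraries, and was higher by 0.58 on the log2 scale (SE 0.07, edgeR adjusted p = 9.3e-07). IL1RL2, the interleukin-36 receptor, had 2 counts over the PTPF and 5 over the STATF libraries, and IL18RAP had 15 over the PTPF and 2 over the STATF libraries.

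Among the ligands, IL1B and IL18 moved in opposite directions. IL1B, whose precursor needs cleavage by CASP1 before release (chromosome 2, 112829751 to 112836903, minus strand), was low but measurable, at 3.34, 3.98 and 3.09 CPM in PTPF libraries and 1.999, 1.66 and 2.004 CPM in STATF libraries. These levels rest on 101 to 146 counts per PTPF library and 69 to 75 per STATF library. IL1B was 1.85-fold higher in PTPF libraries (log2 fold change 0.88, SE 0.17, 95% interval 0.53 to 1.24, edgeR adjusted p = 0.000362), and its interval was the widest among the 7 genes tested.

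IL18, a ligand that also needs cleavage by CASP1 (chromosome 11, 112143251 to 112164117, minus strand), stood at 8.07, 8.94 and 9.28 CPM in PTPF libraries, against 14.8, 14.9 and 16.3 CPM in STATF libraries. Every PTPF library was below every STATF library, and the log2 fold change was -0.80 (SE 0.09, edgeR adjusted p = 9.32e-08), which is 1.74-fold higher in STATF. No exon base of IL18 or IL1B is shared with another annotated gene.

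IL18BP, the soluble inhibitor of interleukin-18 and a known interferon-induced gene (chromosome 11, 71998541 to 72005715, plus strand), had the largest reduction among the 7 members tested. It stood at 7.74, 7.004 and 8.42 CPM in PTPF libraries and 13.9, 15.75 and 15.95 CPM in STATF libraries. The groups were far apart relative to their spread, and the log2 fold change was -0.98 (SE 0.09, 95% interval -1.17 to -0.78, edgeR adjusted p = 8.47e-09), or 1.97-fold higher in STATF. Of its exon bases 15.6% are shared with NUMA1 on the opposite strand, and the strand setting of the counting is not given in the sources used here. NUMA1 itself had a log2 fold change of -0.16 (edgeR adjusted p = 0.0426), with 10528 counts over the PTPF and 13394 over the STATF libraries. The part of these shared bases in the IL18BP result was not tested.

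The remaining members were near the limit of detection, where a count of 0 in a library allows up to 3 counts, or 0.0720 to 0.0919 CPM. IL33, the ligand of IL1RL1 (chromosome 9, 6215786 to 6257983, plus strand), had 8, 13 and 7 counts in PTPF libraries and 4, 5 and 6 in STATF libraries. The groups did not overlap, and the depth-adjusted ratio of summed counts was 2.13 (95% counting interval 1.10 to 4.29, exact), PTPF over STATF. IL1RN, the receptor antagonist (chromosome 2, 113107214 to 113134016, plus strand), had 6, 8 and 9 counts in PTPF libraries and 3, 1 and 5 in STATF libraries, a ratio of 2.91 (1.30 to 7.15). Of the 18334 genes with any count that did not pass the filter, 6.75% had groups that did not overlap in CPM. That set includes genes with too few counts in total to separate the groups, so it is not a share for genes of like depth.

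These intervals cover counting error only. Without a filter on low counts, where 10.2% of genes passed, IL33 (adjusted p = 0.429) and IL1RN (adjusted p = 0.288) did not pass edgeR's test. IL1A, the membrane-associated ligand (chromosome 2, 112773915 to 112784590, minus strand), had 1, 0 and 3 counts in PTPF libraries and 2, 1 and 1 in STATF libraries. No difference in IL1A was detectable at this depth.

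Per unit of gene length, 2 receptors made up most of the family's RNA. In CPM per kilobase, IL1RL1 averaged 22.7 ± 0.517 and IL1R1 22.5 ± 1.19 in the PTPF libraries (SD, n = 3 each), and these neighbours in the order overlapped. Below them came IL1R2 (3.87), IL18 (3.33), IL1RAP (2.12), IL18BP (1.79) and IL1B (1.12 CPM per kilobase), each separate from the next. In STATF libraries IL1R1 stood alone at the top with 18.8 ± 0.66 CPM per kilobase (SD, n = 3). IL1RL1 (6.35 ± 1.2) and IL18 (5.82 ± 0.321) overlapped there, followed by IL18BP (3.52), IL1R2 (2.95), IL1RAP (1.28) and IL1B (0.609 CPM per kilobase). IL33, IL1RN and IL1A averaged below 0.1 CPM per kilobase under both labels.

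**Figure D3:**
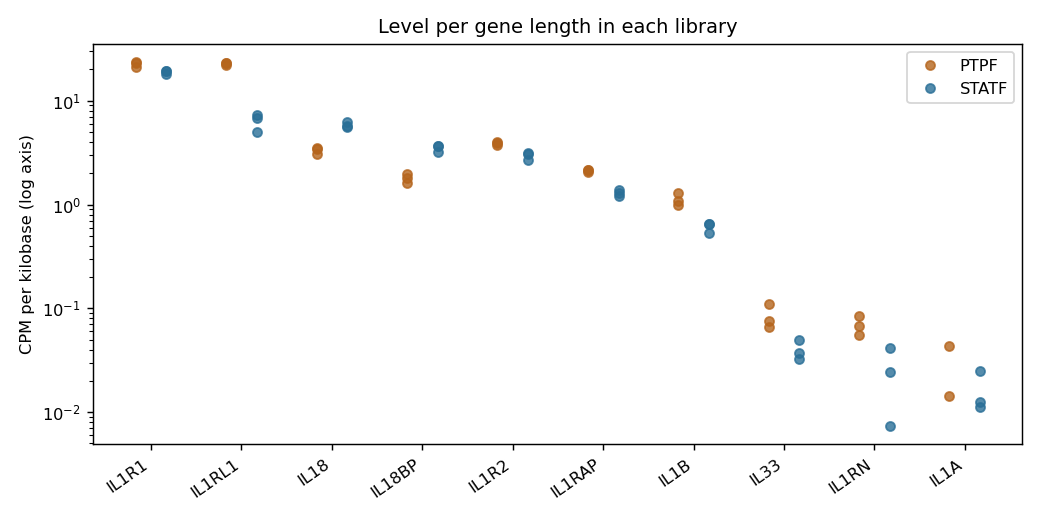
Level per gene length (CPM per kilobase, log axis) of each member in each PTPF (left, brown) and STATF (right, blue) library, ordered by the STATF mean. IL1RL1 was level with IL1R1 in PTPF libraries and level with IL18 in STATF libraries, and PTPF replicate 2, which had no IL1A count, is not drawn for that gene.

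Ratios of raw counts within a library do not depend on how libraries are scaled. There were 5.36, 5.29 and 5.32 IL1RL1 counts per IL1RAP count in PTPF libraries, against 1.80, 3.02 and 2.64 in STATF libraries. The ranges were apart, and the difference was 1.13 on the log2 scale (two-sided exact permutation p = 0.1, the smallest possible, and 0.3 adjusted over the 4 ratios computed). For each inhibitor set against its counterpart the ranges overlapped. IL18BP to IL18 gave 0.959, 0.784 and 0.908 in PTPF libraries and 0.940, 1.06 and 0.980 in STATF libraries, a log2 difference of -0.17. IL1R2 to IL1R1 gave 0.0814, 0.0689 and 0.0739 in PTPF libraries and 0.0640, 0.0705 and 0.0697 in STATF libraries, a log2 difference of 0.13. IL1RN counts were 0.0545, 0.0548 and 0.0891 of those of IL1B in PTPF libraries and 0.0400, 0.0145 and 0.0667 in STATF libraries. The log2 difference there was 0.93, but it rests on 1 to 9 IL1RN counts per library, too few to show whether this ratio differed. The exact permutation p of these 3 ratios was 0.2 for IL18BP to IL18 and 0.3 for each of the others, and 0.3 for all after adjustment.

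**Figure D4:**
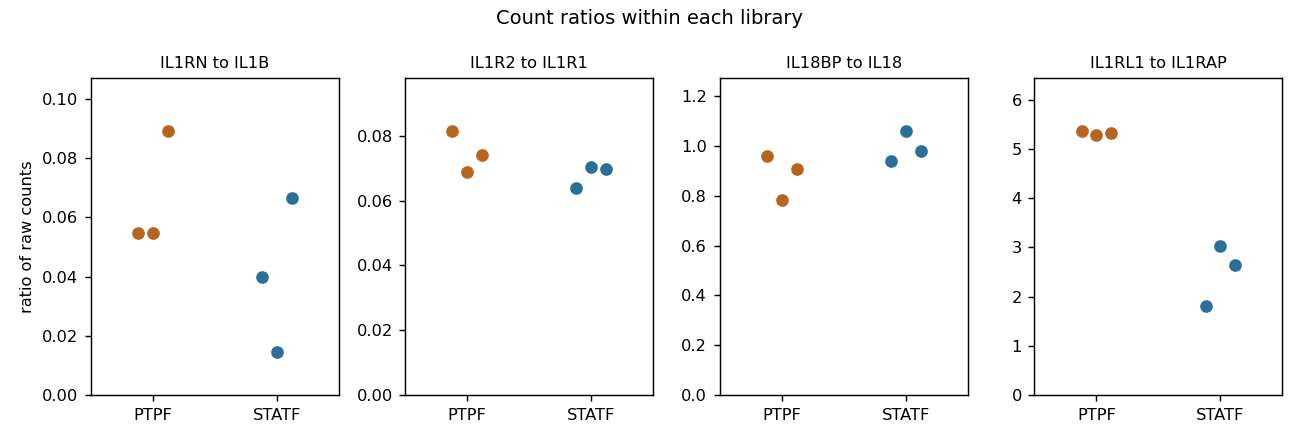
Ratio of raw counts within each PTPF (left, brown) and STATF (right, blue) library for 4 gene pairs, on axes from 0. IL1RL1 to IL1RAP was 5.29 to 5.36 in PTPF and 1.80 to 3.02 in STATF libraries, and the other ratios overlapped.

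Other genes of the pathway, 63 in 5 lists, were divided. Of these, 47 were tested, 10 rose and 8 fell (edgeR adjusted p under 0.05), where 10.1% of all genes tested passed higher and 11.6% lower. The median log2 fold change was -0.02 over these genes and 0.00 over all genes tested. Among 6 further ligands only IL36B had enough counts to be tested, and it did not pass. IL36A, IL36RN and IL1F10 had no counts in any library.

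Of the genes that relay the signal from the receptors, 3 of 16 tested rose and 2 fell, and the median of the list was -0.08 on the log2 scale. The ubiquitin ligases PELI1 (21.2 ± 1.13 CPM in PTPF and 13.1 ± 0.67 CPM in STATF libraries) and PELI2 (8.38 ± 0.376 CPM in PTPF and 5.66 ± 0.504 CPM in STATF libraries), which act on IRAK kinases, rose (SD, n = 3 each, edgeR adjusted p = 1.15e-07 and 0.000386). The kinase MAP3K7, also known as TAK1, rose by 0.26 on the log2 scale. The adaptor MYD88 fell to 54.9 ± 4.31 CPM in PTPF libraries, against 65.8 ± 3.06 CPM in STATF libraries (SD, n = 3 each, edgeR adjusted p = 0.00249).

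Among genes of the inflammasome and of ligand processing, 1 of 8 tested rose and 2 fell, and the median of the list was 0.08 on the log2 scale. CASP4, a caspase that senses cytosolic lipopolysaccharide, stood at 120.5 ± 6 CPM in PTPF and 78.8 ± 4.24 CPM in STATF libraries (SD, n = 3 each, edgeR adjusted p = 5.53e-09). CASP1, which cleaves the IL1B and IL18 precursors, was at 23.1, 23.6 and 18.0 CPM in PTPF libraries, against 28.2, 31.4 and 29.5 CPM in STATF libraries. It fell, with a log2 difference of -0.46 (SE 0.08, edgeR adjusted p = 0.000238), with PTPF replicate 3 the lowest library. CASP8 had a log2 fold change of -0.18 (edgeR adjusted p = 0.034). The inflammasome adaptor PYCARD had 7 counts over the PTPF libraries and 0 over the STATF libraries, and shares 59.7% of its exon bases with an antisense gene. The sensor NLRP3 had at most 3 counts in any library.

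Genes that NF-kB signalling is known to induce went both ways, with 5 of 20 tested higher, 4 lower and a list median of -0.03 on the log2 scale. The transcription factor CEBPD stood at 237 ± 9.68 CPM in PTPF and 133 ± 7.07 CPM in STATF libraries (SD, n = 3 each, edgeR adjusted p = 9.3e-12). LCN2, a siderophore-binding defence protein, and the chemokine CXCL2 rose by 0.71 and 0.78 on the log2 scale. BIRC3, an inhibitor of apoptosis, fell to 318 ± 29.1 CPM in PTPF libraries, against 507.5 ± 30.4 CPM in STATF libraries (SD, n = 3 each, edgeR adjusted p = 9.29e-09).

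**Figure D5:**
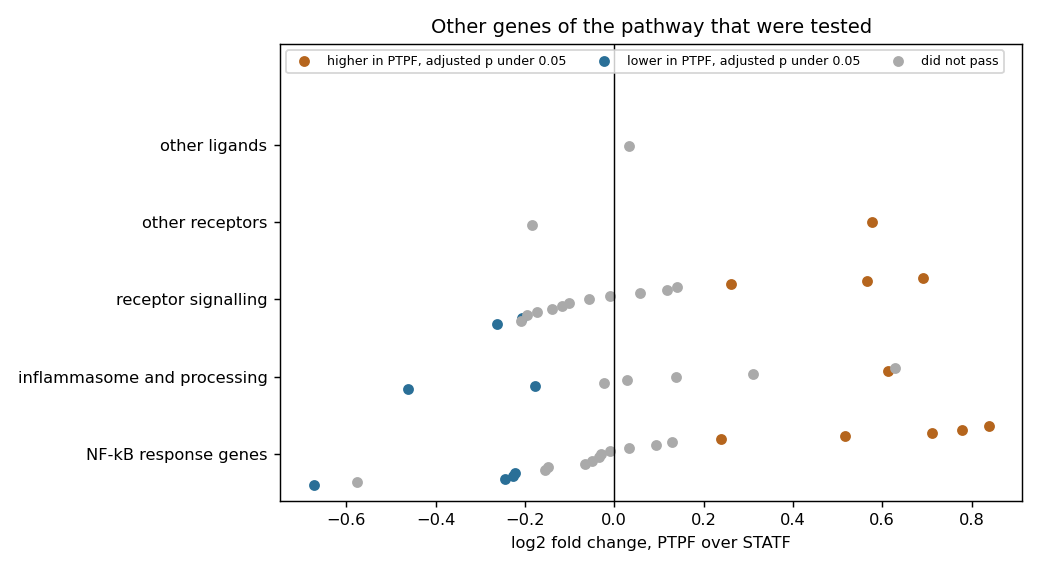
Log2 fold change, PTPF over STATF, of the 47 other pathway genes tested, 1 point per gene, by list and by call at an edgeR adjusted p under 0.05. Genes that rose (brown) and fell (blue) were present in the signalling, processing and NF-kB response lists, and the largest values were 0.84 for CEBPD and -0.67 for BIRC3.

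The tested genes outside the family with the most similar pattern were found by the root mean square distance of centred log2 CPM over the 6 libraries, for the 3 members with the smallest adjusted p. For IL18BP these were APOBEC3G, an antiviral cytidine deaminase (distance 0.051), and HLA-DPA1, a chain of an MHC class II molecule (0.058). Both belong to families of similar genes that can share reads. For IL1RAP they were the membrane protease MMP14 (0.041) and the integrin chain ITGB4 (0.055). For IL18 they were the integrin chain ITGA7 (0.046) and IRF7, a transcription factor of the interferon response (0.046). Their log2 fold changes, which the choice by distance places near that of the member, were -0.96, -1.06, 0.66, 0.63, -0.80 and -0.78 in the order named.

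Some markers of other cell forms were lower in PTPF libraries, where 11.6% of all genes tested passed as lower (edgeR adjusted p under 0.05). The 6 biliary and progenitor markers summed to 122 to 134 CPM in PTPF and 166 to 182 CPM in STATF libraries. KRT19 made up most of that sum, averaging 75.7 CPM in PTPF and 112.7 CPM in STATF libraries. Lower were 2 of 4 tested, KRT19 and SOX9, while KRT7 and SPP1 did not pass, and EPCAM had no counts. The 6 endothelial markers summed to 33.6 to 39.8 CPM in PTPF and 57.9 to 61.5 CPM in STATF libraries, 1 of 3 tested, KDR, was lower, and CDH5 had 1 count in PTPF and 1 in STATF libraries. The 6 mesenchymal markers summed to 59.7 to 73.4 CPM in PTPF and 59.1 to 75.0 CPM in STATF libraries, and 1 of 6 tested, ACTA2, was lower (log2 fold change -0.35, edgeR adjusted p = 0.000751). ACTA2 shares 30.1% of its exon bases with ACTA2-AS1 and FAS on the opposite strand. In bulk RNA, fewer cells of a type and less RNA per cell cannot be told apart, and the part of these markers in the results for IL18, IL18BP and the receptors was not tested.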

How the data were processed

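Polyadenylated RNA of 6 HepaRG libraries was sequenced. The deposited table holds the authors' raw, unscaled read counts by Ensembl gene, together with gene length in bases, an other unit that served for CPM per kilobase. Per the submitters' processing notes, CASAVA 1.8, HISAT2 2.0.5 and featureCounts 1.5.0-p3 were used with GRCh38. The annotation release, strand setting and treatment of multi-mapping reads were not given there. All gene identifiers were in GENCODE release 29, from which exon overlaps were computed. Overlapping genes on either strand can share reads.

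Libraries were grouped by title. After filterByExpr and TMM scaling, the quasi-likelihood test of edgeR 4.0.16 (R 4.3.3) was fitted with group as its only term and robust dispersion. P-values were adjusted by Benjamini and Hochberg's method over all genes tested, at a threshold of 0.05. Fold changes are PTPF over STATF. Standard errors were derived from the F statistic. Log2 CPM for pattern distances used a prior count of 2. Low counts were compared with exact Clopper-Pearson intervals, which cover counting error only. Permutation tests used scipy 1.17.1. The fits were tested on simulated counts. Alternatives were other scalings, no filter, DESeq2 1.42.0, limma-voom (limma 3.58.1), a replicate block and leaving out each library in turn. Libraries of a group differed by more than sampling noise, with 4.30 to 12.1 for chi-square divided by its degrees of freedom. All members, up to 4 called genes per list and the 2 nearest patterns of 3 members were named. The members, lists and tests were chosen with earlier results of these data known.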

Additional observations from a re-analysis of the deposited data

How the results depend on the processing

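The 7 calls among the family held, with the same direction, in each of 13 alternatives, and the number called stayed at 5 higher and 2 lower. The log2 fold change ranged from 1.69 to 1.94 for IL1RL1 and from 0.20 to 0.30 for IL1R1, and the largest adjusted p among the 7 genes was 0.0316, for IL1R2 without STATF replicate 1. Over all genes, library totals as the only scaling gave 1164 higher calls where TMM gave 1801, so that 28.1% of the calls were higher against 46.6%, with the median log2 fold change at -0.06. That scaling leaves out the TMM factors. Leaving out each library in turn gave 2830 to 3808 calls over all genes and 15 to 20 among the other pathway genes. DESeq2 gave 3293. With a replicate block there were 4145 calls over all genes, 7 among the members and 19 among the pathway genes. Same-numbered libraries deviated together little (r = 0.03, 0.06 and 0.00077 across genes), against r from -0.07 to 0.03 for libraries of different number. The numbers were not taken as pairs, though these values cannot exclude pairing. Depth limits IL1A, IL33 and IL1RN.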

Other observations

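A few pathway genes outside the family were below the count needed for the test, and are given as counts, chosen after their values were seen. CASP5, a caspase related to CASP4, had 10, 11 and 5 counts in PTPF libraries and 3, 5 and 3 in STATF libraries. IL18RAP, the second chain of the interleukin-18 receptor, had 4, 7 and 4 counts in PTPF libraries and 0, 2 and 0 in STATF libraries. IL36G, an epithelial ligand of the family, had 0, 1 and 0 counts in PTPF libraries and 3, 2 and 8 in STATF libraries. None of these passed the filter on low counts. Without that filter, where 10.2% of genes passed, none of them passed edgeR's test (adjusted p = 0.277 for CASP5, 0.129 for IL18RAP and 0.188 for IL36G).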
